A study of Mus musculus with 17 samples.

Results

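Medullary thymic epithelial cells of adult mice that carried the Aire-driven reporter and lacked Aire were compared with the same sorted cells of wild-type mice. The comparison rests on 6 of the 17 arrays of the series, 3 labelled as Aire knockout (KO) and 3 as wild type (WT), taken by their titles as adult, GFP-positive and high in MHC class II. The adult groups came from C57BL/6 mice of mixed sex aged 5 weeks, and all groups, WT included, carried the reporter, in which Aire's promoter drives Igrp, which G6pc2 encodes, joined to GFP. Cells were sorted as negative for CD45 and Ly51, high for MHC class II and positive for GFP (GFP+). A further 3 arrays of adult WT cells from the GFP-negative gate (GFP-) are quoted as a level beside the comparison, and carry the same sample numbers as the WT GFP+ arrays. KO and WT GFP+ cells of perinates, labelled as 3 days old, with 3 arrays each, share the fit and are compared with the adults at the end. Each sample's RNA went onto 1 array that covers mouse transcripts along their whole length. The labels name neither the deleted part of Aire nor whether a sample pools animals. The spread behind each SE and p-value is that between samples within groups, pooled over all 17 arrays of the series. It is thus not the scatter of the 6 compared arrays alone, and it may be technical. In KO mice GFP marks cells in which the Aire promoter is active, without the protein.

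Aire is a nuclear protein of medullary thymic epithelium that makes these cells transcribe a great many genes otherwise restricted to single organs. Peptides of those proteins are shown to developing T cells, and T cells that bind them strongly are deleted or become regulatory. Loss of Aire leads to autoimmune disease of several organs in mice and in people. Each Aire-expressing cell turns on only a small, varying set of such genes, so a transcript measured in a sorted population averages over few expressing cells. In a bulk sample fewer cells with a transcript and less RNA in each of them cannot be told apart.

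Aire and G6pc2 were read first, as a check of the labels. Aire read 4355, 6196 and 4739 on the 3 WT arrays, 4851, 4689 and 5242 on the 3 KO arrays and 645, 930.1 and 495 on the 3 GFP- arrays. The KO values lay within the WT range, a log2 difference of -0.03 ± 0.21 (mean ± SE, KO minus WT, as in all differences given here; adjusted p = 0.931). An RNA with a disabling lesion can still bind this probe set, so its level does not check the genotype. G6pc2 read 8956, 8777 and 9689.8 in WT and 8904, 9074 and 9091 in KO cells (difference -0.02 ± 0.14, adjusted p = 0.949). Reporter transcript levels thus overlapped between the genotypes. Both genotypes were sorted on GFP and on MHC class II, so the gate itself favours like levels of the reporter. The same holds for Aire and the class II gene H2-Aa, which are among the medullary markers that follow. Of 13 tested markers of medullary epithelium 0 were called by limma in either direction at an adjusted p under 0.05 (2 at an unadjusted p under 0.05), against 19.9% called over all tested genes. Their summed intensity was 44400 to 45750 in WT and 42580 to 45710 in KO cells. Of these markers Cd40 was called lower by limma under some of the alternatives described at the end, such as array weights (-0.33, adjusted p = 0.0156) and log2(value + 50) (-0.30, adjusted p = 0.0379). The cortical marker Psmb11, a thymus-specific proteasome subunit, stayed near background. It read 93.5, 101 and 109.5 in WT and 89.6, 110.2 and 109.5 in KO. Psmb11 was not typical of the 9 tested cortical markers, whose median level was 516.7 in WT and 631.4 in KO cells. Their summed intensity was 17260 to 18420 in WT and 16830 to 18060 in KO cells. Of these 9 markers limma called 1 lower and 1 higher.

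Values are intensities on a linear scale. An intensity at or below the 40th percentile of its array, which lay at 101.4 to 110.2 on these 6 arrays, is called dim here. Array medians ran from 148.1 to 157.1. Arrays of one genotype correlated across genes at 0.982 to 0.9887 (WT) and 0.9836 to 0.9886 (KO), and arrays of different genotype at 0.9102 to 0.9295, where genes are not independent replicates.

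Of 13842 genes tested, 2750 were called (19.9%), 1496 lower in KO cells (10.8%) and 1254 higher (9.06%). The directions parted with the size of the change. At 2-fold or more 606 genes were lower (4.38% of those tested) and 76 higher (0.549%). At 4-fold or more the counts were 214 and 4, and at 8-fold or more 78 and 0, so that the 28 genes past 16-fold and the 4 past 32-fold were all lower. The median difference over all tested genes was 0.06. Of these counts that of all higher genes moved the most when 1 array was left out. It was 631 without KO array 2, 797 without WT array 7 and 792 without WT array 8. With every array centred on its median the called genes were 61.2% higher (2127 higher, 1349 lower) against 45.6% on the deposited scale.

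The 6 largest falls were those of Mucl2, Ly6g, Ly6a2, Tac2, Gpr50 and Akr1c18. Mucl2, a mucin-like protein of saliva, read 3706, 3719 and 4759 in WT and 70.4, 28.2 and 30.4 in KO cells (-6.68 ± 0.60, adjusted p = 2.34e-07). KO array 1 lay above the other KO arrays for this gene, and even it was far below every WT array. Ly6g, a small anchored surface protein best known from neutrophils, read 2081, 2479.7 and 2603 in WT and 27.3, 32.7 and 28.98 in KO, and its chromosomal neighbour Ly6a2 1588, 1834 and 2247 in WT and 36.3, 43.6 and 34.2 in KO. Both were dim on all 3 KO arrays. Tac2, the precursor of the neuropeptide neurokinin B, read 1083, 1324 and 1165 in WT and 33.1, 35.6 and 41.3 in KO cells (-5.02 ± 0.22). Gpr50, an orphan relative of the melatonin receptors, went from 1122, 1523 and 1232 to 45.3, 36.2 and 42.96. Akr1c18, which inactivates progesterone, went from 1057, 1203 and 1530.4 to 45.1, 40.1 and 40.7 (-4.90 ± 0.22). For these 6 genes the highest KO array was below the lowest WT array, and in all but Mucl2 the WT GFP- arrays lay between the 2 genotypes, such as 391, 381 and 262 for Akr1c18.

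**Figure D1:**
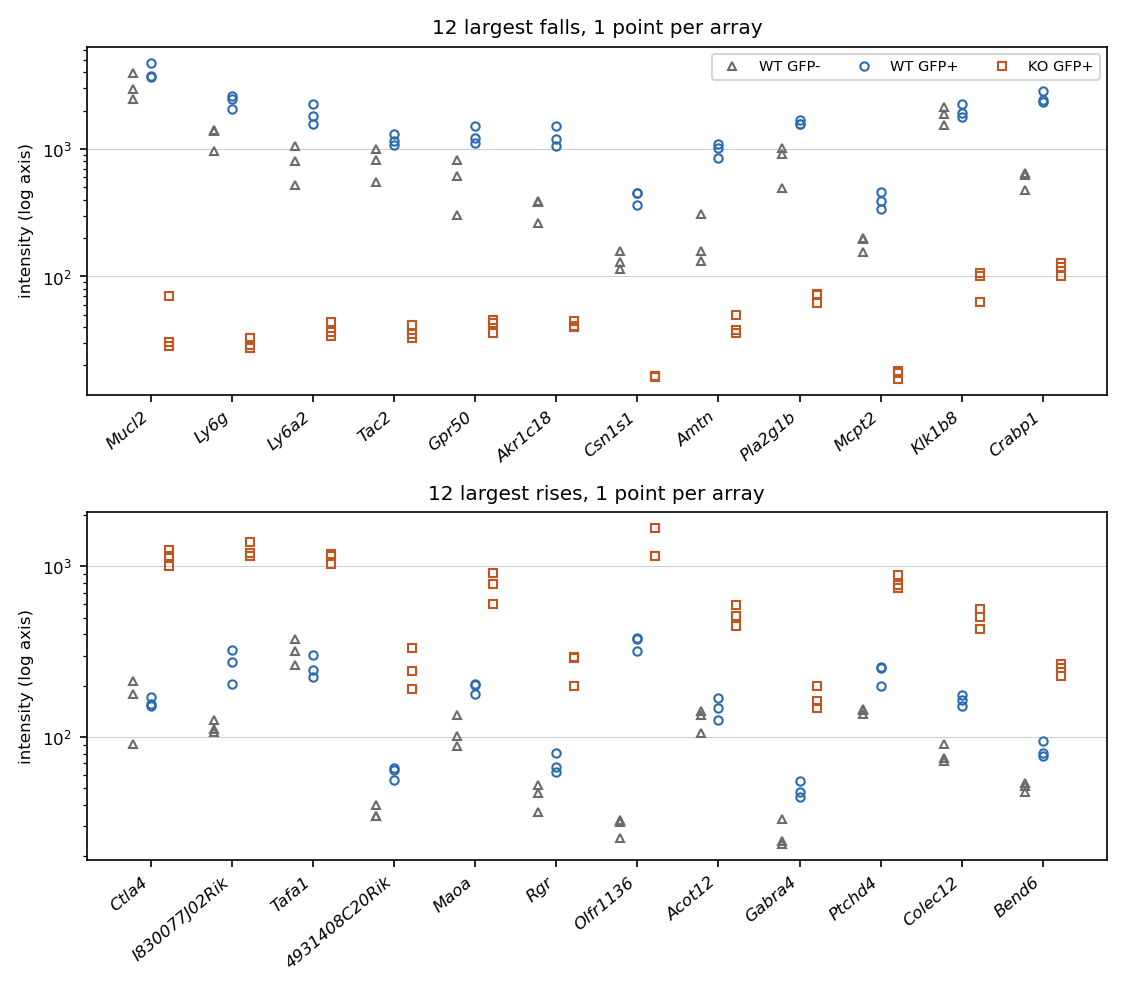
Intensity on each array (log axis) for the 12 genes with the largest called falls (top) and the 12 with the largest called rises (bottom), with adult WT GFP- cells as triangles, adult WT GFP+ cells as circles and adult KO GFP+ cells as squares, 3 arrays each. For the falls the KO squares lie below every circle and triangle of the same gene, as for Tac2 at 33.1, 35.6 and 41.3; for the rises they lie above all of them, as for Ctla4 at 1147, 1246 and 997.

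Further large falls followed. Csn1s1, a casein of milk, read 366, 453 and 455 in WT and 16.6, 16.7 and 16.3 in KO cells. Amtn, an enamel protein, read 854, 1099.9 and 1020.2 in WT and 49.8, 38.2 and 36.02 in KO, and Pla2g1b, the phospholipase of pancreatic juice, 1678, 1588 and 1588 in WT and 70.9, 61.3 and 73.4 in KO. None of these KO values rose above the dim range. Crabp1, a carrier of retinoic acid, went from 2429.7, 2845 and 2339.8 to 100.2, 127 and 119 (-4.46 ± 0.14, adjusted p = 1.34e-12). Calb2, the calcium-binding calretinin of neurons, went from 606, 841 and 756 to 36.7, 35.3 and 35.1. Mcpt2, a mast cell protease, fell from 336, 389.5 and 464 to 15.7, 17.4 and 17.9, and Cyp1a2, a drug-oxidising liver enzyme, from 645, 672 and 573 to 31.03, 33.7 and 32.2. Scgb1a1, the secretoglobin of airway club cells, read 749, 687 and 1351 in WT and 66.4, 49.6 and 28.3 in KO cells, against 2394, 2497 and 2973 in WT GFP- cells. Here the GFP- arrays were the highest of the 3 groups, unlike for Crabp1 (652, 631 and 479) or Cyp1a2 (104, 94.5 and 97.3).

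Most of the genes at least 2-fold lower were of modest level in WT cells. Their median intensity was 278 in WT GFP+, 73.3 in KO GFP+ and 154.7 in WT GFP- cells, while the median of all tested genes in WT cells was 277.9. By WT level, 456 of the 606 lay below 500, 128 between 500 and 2000 and 22 at 2000 or more. On all 3 KO arrays 392 of them (64.7%) were dim, against 9.93% of all tested genes, and 162 were above the dim range on all 3. For the dim ones the size of the fold depends on the floor of the array. In 603 of the 606 all KO arrays lay below all WT arrays, against 16.9% of all tested genes (2343), but the 606 were chosen by these same values.

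Among genes with a mean intensity above 500 in both genotypes the falls were smaller. Igf1, a growth factor, read 2142, 2311 and 2267 in WT and 569, 485 and 522 in KO cells (-2.09 ± 0.16, adjusted p = 3.75e-08). Ccl5, a chemokine for T cells, read 4084, 4179 and 4205 in WT and 1285, 1155 and 1110 in KO. Apoa4, an apolipoprotein of the intestine, read 2145, 2455 and 2352 in WT and 755, 756 and 479 in KO. All 3 KO arrays were below all WT arrays for each of them. The cornified envelope protein Sprr1a went from 5298, 4300.1 and 4363 to 1224, 798 and 1778, Fn1 (fibronectin) from 1414, 1515 and 1317 to 576, 506 and 671, and Tfap2b, a developmental transcription factor, from 1685, 1965 and 1825 to 829, 671 and 798. Hspb1, a small heat shock protein, also met the rule at 9129, 4820.2 and 6202 in WT and 1742, 1191 and 7002 in KO cells (-1.41 ± 0.47, adjusted p = 0.0427), but KO array 3 lay inside the WT range. Without that array the difference was -2.17, and the call was lost under 7 of 15 alternatives (adjusted p from 0.000148 to 0.245).

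**Figure D2:**
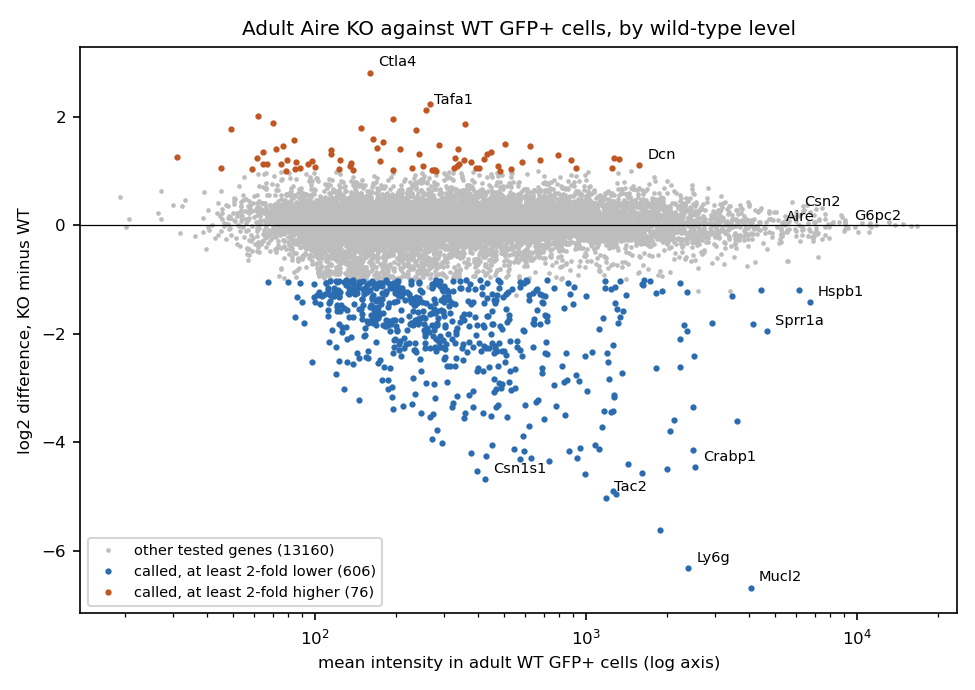
Log2 difference KO minus WT (vertical axis) against mean intensity in adult WT GFP+ cells (log axis), 1 point per tested gene, with genes called and at least 2-fold lower in blue (606) and higher in orange (76). Points reach down to -6.68 for Mucl2 and up to 2.82 for Ctla4, while the bright Aire, G6pc2 and Csn2 lie near 0.

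The promoters of these genes are shown because their sequence differed from that of other tested genes in ways that the array comparison did not use. The windows come from RefSeq (build GRCm38.p6), span 250 bases before to 50 bases after a gene's start, and were found for 10989 of the tested genes, 470 of the 606 and 54 of the 76; for genes with several starts the most upstream was taken. The 100 bases before the start of the 5 largest falls that have a window follow, 5′ to 3′ on the gene's strand, with each CG dinucleotide in capitals.
Mucl2 (chr15:103899313-103899412, minus strand): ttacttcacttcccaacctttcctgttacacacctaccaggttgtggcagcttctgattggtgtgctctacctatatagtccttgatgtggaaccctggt
Ly6g (chr15:75155161-75155260, plus strand): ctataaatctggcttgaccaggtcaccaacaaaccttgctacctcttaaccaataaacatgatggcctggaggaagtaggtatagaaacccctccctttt
Ly6a2 (chr15:75135129-75135228, minus strand): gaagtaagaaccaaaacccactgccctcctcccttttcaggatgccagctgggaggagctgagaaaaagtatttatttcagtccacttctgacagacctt
Tac2 (chr10:127724378-127724477, plus strand): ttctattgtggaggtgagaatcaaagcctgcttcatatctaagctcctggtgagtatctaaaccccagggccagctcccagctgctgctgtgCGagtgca
Gpr50 (chrX:71663567-71663666, plus strand): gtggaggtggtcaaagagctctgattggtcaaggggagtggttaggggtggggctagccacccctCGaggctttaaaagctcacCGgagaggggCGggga
The same stretch of the 5 largest rises reads as follows.
Ctla4 (chr1:60908925-60909024, plus strand): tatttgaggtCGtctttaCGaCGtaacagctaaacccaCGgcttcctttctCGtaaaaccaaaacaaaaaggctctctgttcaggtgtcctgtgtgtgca
I830077J02Rik (chr3:105932665-105932764, minus strand): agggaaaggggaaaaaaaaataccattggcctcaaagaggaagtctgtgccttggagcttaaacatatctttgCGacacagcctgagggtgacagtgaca
Tafa1 (chr6:96113054-96113153, plus strand): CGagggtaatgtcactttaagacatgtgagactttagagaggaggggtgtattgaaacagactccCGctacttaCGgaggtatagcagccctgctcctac
4931408C20Rik (chr1:26687461-26687560, minus strand): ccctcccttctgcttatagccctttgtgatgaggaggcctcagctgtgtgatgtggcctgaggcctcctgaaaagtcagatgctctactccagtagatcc
Maoa (chrX:16619598-16619697, plus strand): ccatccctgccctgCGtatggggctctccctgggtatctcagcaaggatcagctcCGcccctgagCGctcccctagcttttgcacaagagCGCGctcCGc
Mucl2, Ly6g and Ly6a2 hold 0 CG in these 100 bases and 1 each in the 300-base window. Among the rises, Maoa holds 6 in 100 bases and Ctla4 5, while 4931408C20Rik holds 0.

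CG dinucleotides were scarce over the whole set of lower genes. A window was called CpG-rich if its CG count reached 0.6 of the number expected from its C and G content and at least 50% of its bases were C or G. Of the windows of genes at least 2-fold lower 13.4% were CpG-rich (63 of 470), of those at least 8-fold lower 4.84% (3 of 62), and of genes called lower by less than 2-fold 39.1% (266 of 680). The share was 67.8% for genes not called, 67.4% for genes called higher by less than 2-fold, 40.7% for genes at least 2-fold higher (22 of 54) and 63.5% for all tested genes. Over all 32841 windows of the table, many of them of genes not tested here, it was 33.5%. Among genes with a WT mean of 100 to 500, the share was 13.5% for the 2-fold lower genes (46 of 341), 66.4% for those not called (3592 of 5406) and 43.8% for the 2-fold higher genes (14 of 32). Genes are not independent, and no test was made.

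The TATA box, a core promoter element that lies a short way before the start of many tightly regulated genes, was searched as the exact letters TATAAA, beginning 40 to 20 bases before the start. It stood in 13.8% of the windows of genes at least 2-fold lower (65 of 470), 3.82% of those lower by less than 2-fold, 1.36% of those not called, 1.85% of those at least 2-fold higher (1 of 54), 2.05% of all tested genes and 1.99% of all windows of the table. On the other strand the same motif (TTTATA as read here) stood in 1.91% of the windows of 2-fold lower genes and 0.419% of all tested, and the motifs overlapped in 1 window of the lower set. The largest falls with TATAAA in that window are shown with it in capitals.
Cyp1a2 (chr9:57683656-57683755, minus strand): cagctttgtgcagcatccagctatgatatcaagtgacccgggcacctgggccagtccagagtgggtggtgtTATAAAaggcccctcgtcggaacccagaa
1810065E05Rik (chr11:58421011-58421110, plus strand): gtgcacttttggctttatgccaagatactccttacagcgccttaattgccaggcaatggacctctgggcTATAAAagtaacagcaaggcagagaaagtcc
Pgc (chr17:47726742-47726841, plus strand): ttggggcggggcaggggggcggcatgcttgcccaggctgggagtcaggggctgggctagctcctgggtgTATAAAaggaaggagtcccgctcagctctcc
Ppbp (chr5:90768418-90768517, plus strand): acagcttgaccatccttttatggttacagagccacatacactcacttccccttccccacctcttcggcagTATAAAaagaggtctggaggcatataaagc
Rln3 (chr8:84044980-84045079, minus strand): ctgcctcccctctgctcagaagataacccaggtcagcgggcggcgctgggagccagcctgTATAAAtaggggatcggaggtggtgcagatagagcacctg
The motif begins 29 to 31 bases before the start in the first 4 and 40 bases before it in Rln3. A match is a description of these letters, and its absence says only that they are not in this window.

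**Figure D3:**
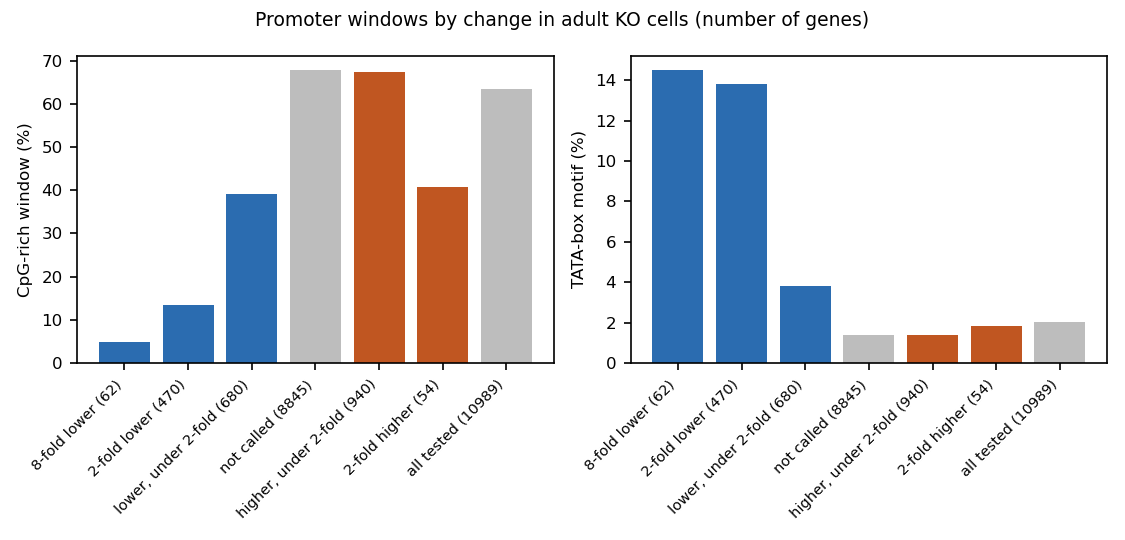
Share of promoter windows that are CpG-rich (left) and that hold TATAAA 40 to 20 bases before the start (right), in percent of the windows found, by class of change in adult KO cells, with the number of genes in brackets. The CpG-rich share is 13.4% for genes at least 2-fold lower and 67.8% for genes not called; the TATA-box share is 13.8% and 1.36%.

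Many of the lower genes lay side by side on their chromosomes. Of 605 lower genes with a place in RefSeq, 208 (34.4%) had another 2-fold lower gene as their nearest tested neighbour on either side, against 8.01% of all 13835 placed tested genes. Of the 76 higher genes 6 (7.89%) lay beside another higher gene, against 1.08%. The longest run was of 15 kallikreins on chromosome 7, serine proteases of glands and skin, from Klk7 to Klk1b5, with differences of -4.50 to -1.11. The 4 kallikreins tested before Klk7, Klk12 (-0.97 ± 0.17), Klk10 (-0.89 ± 0.19), Klk9 (-1.74 ± 0.19) and Klk8 (-0.87 ± 0.16), were called lower too. Beyond Klk1b5, at the other end, the differences were smaller at 1700028J19Rik (-0.57 ± 0.15) and 2410002F23Rik (-0.38 ± 0.13), both called, and Acp4 (-0.26 ± 0.12) and Clec11a (0.12 ± 0.14) were not called. Near-identical paralogs can share probe sequence, so single members of such families are less certain than the run.

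Other runs joined relatives in the same way. On chromosome 3 the glutathione transferases Gstm5, Gstm7, Gstm6, Gstm3, Gstm2 and Gstm1, which conjugate toxins, were 2-fold lower in a row, with Gstm4 (-0.77 ± 0.13) called by less and Ampd2 (-0.14 ± 0.10) not called. Gstm3 had the largest difference of the run, from 2484, 2488 and 2509 in WT to 273, 232 and 230.2 in KO cells (-3.35 ± 0.10, adjusted p = 3.66e-13). On chromosome 14 a run of 7 secreted ribonucleases and angiogenins went from Rnase1 to Ear6, with -2.89 ± 0.27 for Rnase2a, and its neighbours Pnp (-0.32 ± 0.19) and Mettl17 (0.11 ± 0.19) were not called. A run of 7 on chromosome 3 held Lor and small proline-rich proteins of the skin. Runs of 6 Bpif salivary and airway proteins on chromosome 2 and 5 keratins on chromosome 15 followed. The run Mcpt1, Mcpt2, Mcpt4, Gzmb and Atp12a on chromosome 14 held mast cell proteases and a granzyme. Shorter ones held the carboxylesterases Ces1c, Ces1d, Ces1f and Ces1g, the apolipoproteins Apoa1, Apoc3 and Apoa4, the trefoil factors Tff3, Tff2 and Tff1, and Ly6a2, Ly6g and Ly6f. In all there were 50 pairs of adjacent lower genes and 15 runs of 3. Among higher genes the run Dcn, Lum and Epyc on chromosome 10 joined 3 proteoglycans of the matrix.

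**Figure D4:**
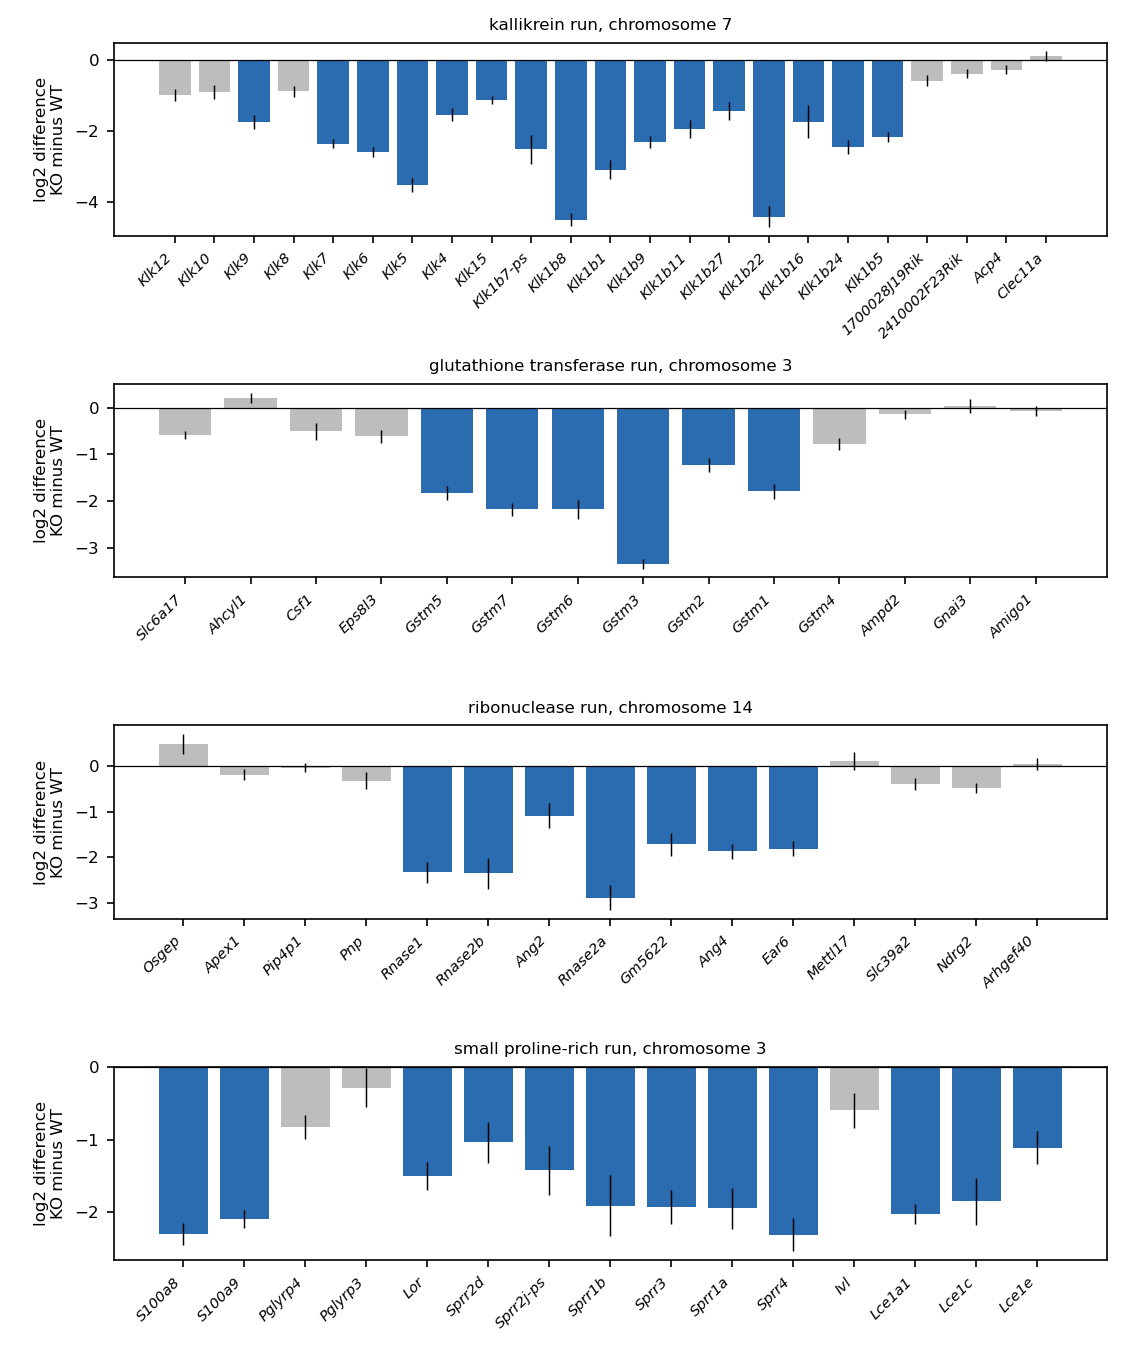
Log2 difference KO minus WT (bar, with its SE as a line) of tested genes in their order along the chromosome for 4 runs, with 4 tested genes on each side; blue bars are called and at least 2-fold lower, grey bars are not. The bars of the run of 15 kallikreins reach from -4.50 at Klk1b8 to -1.11 at Klk15, and the bars beyond the ribonuclease run stay between -0.47 and 0.48.

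Gene families are described below by how many tested members were called, beside 10.8% lower and 9.06% higher over all tested genes. A family's member was tested only if its probe set was bright enough on at least 2 of the 17 arrays, so a member bright in WT cells alone entered and one dim everywhere did not, and the counts describe the tested members and not the whole family.

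Plasma carriers, apolipoproteins and clotting proteins fell in most tested members, and complement components and serpins in part. Of 20 tested carriers and apolipoproteins (27 listed) 17 were lower and 0 higher, with a median difference of -1.53. Alb, the albumin of plasma, read 233, 281 and 316 in WT and 35.5, 35.4 and 37.9 in KO cells, and Apoa1, of high-density lipoprotein, 1098, 1372 and 1626 in WT and 212, 234 and 172 in KO (-2.72 ± 0.16). The serum amyloid A proteins Saa4 and Saa2 differed by -3.35 ± 0.21 and -3.35 ± 0.20. No KO array reached a WT array for these 4. Apoe, the lipoprotein that macrophages and other epithelia also make, read 1331, 965 and 949 in WT and 746, 595 and 987 in KO (adjusted p = 0.101), with overlapping groups. Of 7 tested clotting proteins 4 were lower, led by the fibrinogen chain Fgg (272, 282 and 280.2 in WT, 36.1, 27.8 and 28.1 in KO), while the abundant Serpinc1 (antithrombin) read 554, 584 and 603 in WT and 511, 442 and 432 in KO and was not called (adjusted p = 0.166). Of 10 complement components 5 were lower, led by C1qb (-1.26 ± 0.25), and of 17 serpins 4 were lower and 3 higher, among them the keratinocyte serpin Serpinb7 (1.14 ± 0.21).

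Enzymes that handle foreign compounds fell in part. Of 21 tested glutathione, glucuronosyl and sulfo transferases 15 were lower and 1 higher (median -0.92). Gstt1 read 645, 686 and 702 in WT and 190.2, 204 and 185 in KO cells (-1.81 ± 0.11). Gsta4 read 507, 410.0 and 632 in WT and 369, 368 and 168 in KO, below the threshold for a call (adjusted p = 0.0506), with KO array 3 the lowest and GFP- cells at 3008, 2910.2 and 3261. Of 30 tested cytochrome P450 enzymes 10 were lower and 3 higher. The steroid side-chain cleavage enzyme Cyp11a1 fell from 194, 206 and 243 to 41.3, 49.6 and 42.4. Cyp26a1, which degrades retinoic acid, rose from 316, 410.2 and 341 to 753, 1002 and 724 (1.21 ± 0.20, adjusted p = 0.000221), with no overlap. Of 12 tested tryptophan and kynurenine enzymes 5 were lower and 2 higher. Tdo2, the liver's first enzyme of tryptophan breakdown, fell from 563, 724 and 681 to 69.4, 89.05 and 52.2, and its inducible counterpart Ido1 from 330.4, 248 and 256 to 61.3, 58.7 and 53.8. The downstream Kmo was not called (393, 429 and 416 in WT and 399, 378 and 347 in KO). Kynu rose from 1786, 2073 and 1744 to 2664, 2859 and 2904 (0.59 ± 0.19), a call lost under 5 of 15 alternatives. The other higher member was Maoa (1.96 ± 0.21).

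Digestive proteins fell in the pancreas, stomach and intestine lists. Of 16 tested pancreatic enzymes 14 were lower and 0 higher (median -1.66). Ctrb1, a chymotrypsinogen, read 1177, 1214 and 1388 in WT and 126, 127 and 102 in KO cells, and Zg16, a zymogen granule lectin, 1025, 1015 and 1204 in WT and 79.4, 70.5 and 48.4 in KO. The 2 that were not called, Ctrl (0.11 ± 0.17) and Cela2a (-0.06 ± 0.12), were faint in both genotypes. Of 46 tested gut proteins 34 were lower and 0 higher (median -1.15). Pgc, a pepsinogen of the stomach, went from 843, 909 and 853 to 42.4, 45.04 and 59.97, Reg4 from 571, 641 and 636 to 53.9, 43.3 and 45.9 and the trefoil factor Tff3 from 1142, 1184 and 1488 to 144, 147 and 143. Reg3g, an antibacterial lectin, was not called, at 4826, 5088 and 5818 in WT, 4488, 4301 and 3976 in KO and 8796, 9308 and 9838 in GFP- cells (-0.30 ± 0.18, adjusted p = 0.276). The mucin Muc1 read 2904, 2699.8 and 2620 in WT and 2042, 1776 and 2021 in KO and was not called either (-0.50 ± 0.23, adjusted p = 0.145). Its KO arrays all lay below its WT arrays. With only the 6 compared arrays in the fit (adjusted p = 0.00618) and with array weights (adjusted p = 0.0385) limma called Muc1 lower.

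Hormones of the islets fell. Of 18 tested islet genes 9 were lower and 0 higher (median -0.45). The uncalled ones include G6pc2, which the reporter carries, so its level here is not that of the islet gene alone. Ins2, an insulin gene, read 319, 238 and 257 in WT and 85.1, 87.2 and 89.9 in KO cells (-1.62 ± 0.19, adjusted p = 5.31e-06). The KO arrays were dim, and GFP- cells read 306, 321 and 197. Somatostatin (Sst) read 1016, 994 and 1027 in WT and 104, 130.3 and 135 in KO, pancreatic polypeptide (Ppy) 899, 1154 and 1605 in WT and 171, 157 and 173 in KO, and glucagon (Gcg) 524, 404 and 427 in WT and 98.7, 103 and 98.6 in KO. Amylin (Iapp), stored with insulin, differed by -2.52 ± 0.20 and peptide YY (Pyy) by -2.76 ± 0.18. Scg5 and Abcc8 were not called. Scg5, a secretory granule chaperone, read 476, 499 and 615 in WT and 409, 469 and 495 in KO, and Abcc8, the sulfonylurea receptor, 437, 469.9 and 438 in WT and 477, 413 and 502 in KO. Those values overlapped between the genotypes.

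Many precursors of neuropeptides and peptide hormones fell. Of 49 tested 28 were lower and 0 higher (median -0.63). Rln3, relaxin-3 of the brainstem, fell from 2489, 2520.3 and 2444 to 161, 127 and 137 (-4.14 ± 0.19), galanin (Gal) from 447, 572 and 523 to 48.5, 43.7 and 40.9, neurotensin (Nts) from 241, 336 and 312 to 14.99, 20.8 and 19.1 and parathyroid hormone (Pth) from 179, 173 and 226 to 16.2, 18.6 and 47.2. Every KO array lay below every WT array for these. Calcb, a calcitonin-related peptide, was bright in both genotypes, at 7020.1, 5628 and 4755 in WT and 8056, 6589 and 8572 in KO cells (0.43 ± 0.34, adjusted p = 0.41). Adrenomedullin (Adm) read 1814, 1431 and 1541 in WT and 1710, 1738 and 1926 in KO, with overlap. Of 35 tested neurotransmitter receptor subunits 12 were lower and 4 higher, and members of one receptor class moved in opposite directions. The GABA receptor subunit Gabra5 fell from 234, 286 and 219 to 39.9, 38.2 and 36.3, Gabrp fell from 869, 976 and 988 to 159, 146 and 91.1, and Gabra4 rose from 54.97, 47.9 and 44.6 to 148, 163 and 199 (1.78 ± 0.14, adjusted p = 4.75e-08).

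Most tested kallikreins, secretoglobins and proteins of milk, enamel and saliva were lower. All 20 tested kallikreins (27 listed) were lower, 17 of them at least 2-fold (median -2.06). Klk1b8 read 1776, 1934 and 2273 in WT and 106, 101 and 63.6 in KO cells, Klk5, a skin protease, 410.5, 503 and 436 in WT and 38.05, 40.7 and 39.3 in KO, and Klk14 762, 775 and 764 in WT and 97.2, 104 and 99.4 in KO. Klk1b11 stayed bright in KO cells, at 783, 838 and 350.0 against 2126, 2254 and 2716, with KO array 3 the lowest. All 12 tested secretoglobins, lipocalins and odorant carriers (42 listed) were lower as well (median -2.03). Obp2a read 573, 598 and 542 in WT and 27.6, 28.9 and 30.2 in KO, Lcn11 437, 497 and 541 in WT and 69.1, 57.6 and 66.9 in KO, and Ptgds, the lipocalin that makes prostaglandin D, 513, 477 and 583 in WT and 126, 114 and 119 in KO. Of 15 tested milk, enamel and saliva proteins 13 were lower (median -3). Their exceptions were Csn2, beta-casein, at 5522, 5657 and 6793 in WT and 6822, 7350.2 and 7093 in KO cells (0.25 ± 0.17, adjusted p = 0.338), and lactoperoxidase (Lpo), at 1792, 1618 and 1868 in WT and 1525, 1035 and 1075 in KO (adjusted p = 0.0628). Csn2 thus stayed bright in KO cells while the caseins Csn1s1 and Csn1s2a (382, 365 and 602 in WT, 26.3, 26.1 and 26.97 in KO) were dim there. In the list of seminal vesicle, epididymal and prostate proteins 4 of 9 tested were lower and 0 higher (median -0.4). Its member Defb4 had a difference of -3.46 ± 0.27, while Acpp, a prostate phosphatase (-0.28 ± 0.21), Wfdc18 (-0.28 ± 0.21) and Spink5 (0.44 ± 0.39) were not called. The salivary Bpifa2 read 406, 387 and 462 in WT and 36.1, 36.0 and 41.8 in KO cells, without overlap (-3.46 ± 1.03). Its SE is pooled over all groups of the series and is wide beside the scatter of these arrays. Its call was lost under 8 of 15 alternatives (adjusted p from 3.07e-08 to 0.0827).

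Skin proteins fell in part. Of 36 tested keratins 23 were lower and 0 higher (median -0.71). Krt77, of sweat ducts and suprabasal skin, went from 778, 867 and 821 to 149, 149.8 and 114, and the hair follicle keratin Krt71 from 376, 349.8 and 367 to 69.2, 71.05 and 77.4. Of the keratins known from thymic epithelium, Krt19 fell from 335, 291 and 425 to 106, 110.1 and 106 (-1.69 ± 0.25). Krt8, Krt18 and Krt17 were not called. Krt8 read 7330.1, 6722 and 6787 in WT and 8071, 7016 and 6679 in KO, and Krt18 and Krt17 differed by 0.17 ± 0.10 and -0.14 ± 0.13. Krt5, the keratin of basal cells, read 1647, 1502 and 2125 in WT and 1744, 1854 and 904 in KO cells, with array 3 below the rest (adjusted p = 0.57). Of 38 tested cornified envelope proteins 24 were lower and 2 higher (median -0.83). Lce1h read 658, 746 and 754 in WT and 132, 132 and 154 in KO, and Alox12b, a lipoxygenase of the skin barrier, 522, 543 and 589 in WT and 75.02, 74.3 and 58.6 in KO. Repetin (Rptn) was at 343, 337 and 422 in WT and 423, 503 and 216 in KO cells, with KO array 3 lowest and GFP- cells at 1677, 1425 and 1541 (adjusted p = 0.969).

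Muscle, eye and germ cell lists were mixed. Of 36 tested muscle proteins 13 were lower and 5 higher (median -0.16). Actc1, cardiac actin, went from 714, 723 and 717 to 204, 218 and 216 (-1.76 ± 0.14), Tnni1, slow troponin, from 416, 489 and 481 to 95.8, 93.6 and 98.2, and Chrna1, the acetylcholine receptor subunit targeted in myasthenia, from 246, 238 and 239.9 to 74.98, 67.9 and 62.8. The count of higher muscle genes was 2 without WT array 6 and 3 without WT array 7, KO array 1 or KO array 2. Myotilin (Myot) rose from 291, 335 and 302 to 506, 577 and 628 (0.88 ± 0.14). Alpha-actinin-3 (Actn3), bright in both genotypes, was not called (3299.6, 3316 and 3032 in WT and 3789, 3413 and 3422 in KO). In the eye list of 17, 7 were lower and 1 higher. The lens crystallin Cryaa fell from 675, 744 and 650.4 to 104, 118 and 110.3, and the retinal opsin relative Rgr rose from 62.6, 66.7 and 80.8 to 289, 293 and 199. Among 12 tested germ cell transcripts 4 were lower and 1 higher. Within the zona pellucida proteins of the egg, Zp3 fell from 214, 244 and 240.2 to 44.5, 49.2 and 48.04, whereas Zp2 rose from 649, 667 and 791 to 1488, 1387 and 1118 (0.92 ± 0.13, adjusted p = 5.57e-05). Of 8 tested placental and carcinoembryonic glycoproteins 7 were lower, led by Psg27 (255, 271 and 294 in WT, 25.1, 26.95 and 21.8 in KO). Of 29 tested Ly6-domain proteins 14 were lower and 1 higher, and the broad Ly6e (7205, 7594 and 8116 in WT and 7278, 6689 and 6199 in KO) was not called.

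**Figure D5:**
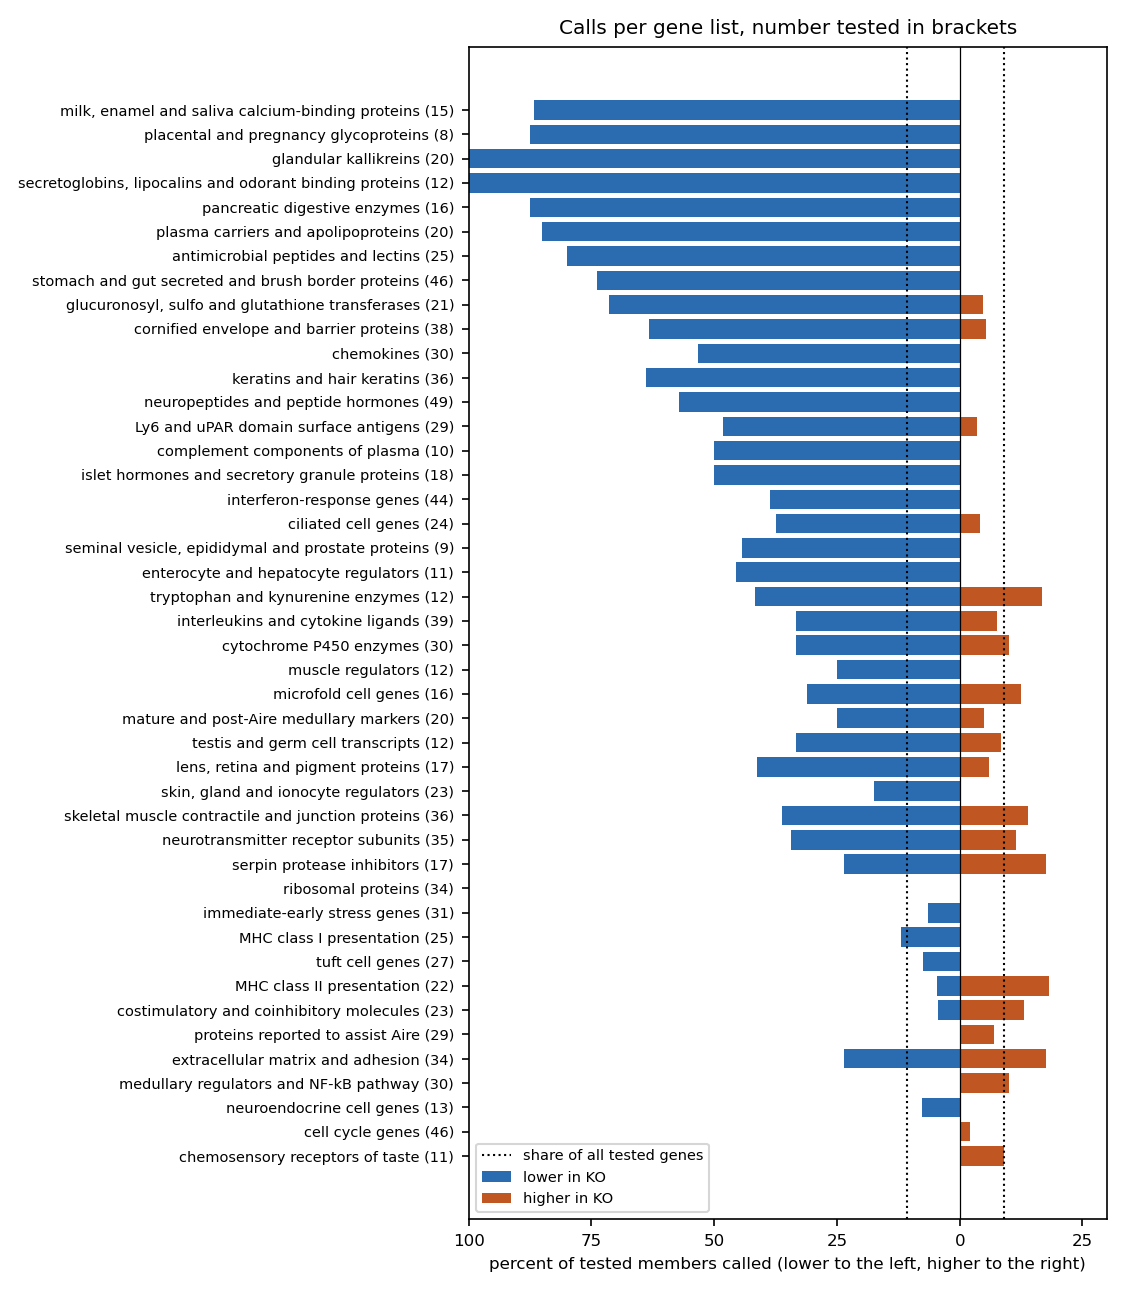
Percent of tested members called lower (bars to the left) or higher (bars to the right) in adult KO cells, for each gene list with at least 8 tested members, ordered by median difference, with the number tested in brackets; dotted lines mark 10.8% and 9.06%, the shares over all tested genes. Bars for glandular kallikreins and secretoglobins reach 100%, and ribosomal proteins have none.

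Defence proteins and signals of the immune system also changed. Of 25 tested antimicrobial proteins 20 were lower and 0 higher (median -1.2). The beta-defensin Defb3 fell from 1342, 1121 and 1349 to 209, 142 and 93.7, and Retnla, a secreted product of tissue macrophages and gut, from 276, 292 and 282 to 16.9, 15.4 and 34.2. S100a8, a calcium-binding protein abundant in neutrophils, went from 491, 509 and 722 to 119, 124 and 102. Neutrophil markers moved with these and with Ly6g. All 5 tested of 8 were lower, among them myeloperoxidase (Mpo), from 693, 852 and 793 to 78.9, 78.8 and 72.7, and Ngp, from 259, 329.9 and 387 to 32.8, 32.1 and 34.7. The list's summed intensity was 2038 to 2603 in WT and 510 to 538.5 in KO cells. Their part in the results was not tested.

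Chemokines and cytokines were lower in part. Of 30 tested chemokines 16 were lower and 0 higher (median -0.75). Cxcl13, which draws B cells, read 2384, 2601 and 2557 in WT, 552, 605 and 319 in KO and 418, 652 and 347 in GFP- cells (-2.40 ± 0.27). Xcl1, which draws dendritic cells to the medulla, read 358, 328 and 362 in WT and 74.1, 80.1 and 64.6 in KO, and Ccl22 1010.1, 1125 and 1637 in WT and 317, 206 and 286 in KO. Ppbp, a platelet chemokine precursor, fell from 419.8, 539 and 822 to 32.5, 30.1 and 33.7. In contrast Cxcl10 (10294, 8236 and 8673 in WT, 9951, 8784 and 10430 in KO), Ccl25 (0.0085 ± 0.18) and the chemokine Ccl19 (-0.09 ± 0.11) were not called. Of 39 tested cytokine ligands 13 were lower and 3 higher. Il9 went from 673, 712 and 721 to 58.6, 62.2 and 57.1, Il5 from 305, 321 and 319.6 to 58.3, 50.3 and 48.98 and Tslp, an epithelial alarm cytokine, from 207, 186 and 176 to 28.3, 34.8 and 29.4. Il13, encoded near Il5, read 2345, 2439.8 and 2595 in WT and 4257, 3586 and 3859 in KO cells, higher on all 3 KO arrays but not called (0.66 ± 0.27, adjusted p = 0.104). With only the 6 compared arrays in the fit limma called Il13 higher (adjusted p = 0.00123), and under the other alternatives it did not. Of 44 tested interferon-response genes 17 were lower and 0 higher (median -0.42). Rsad2, an antiviral enzyme, read 607, 333 and 427 in WT and 125, 93.7 and 169.6 in KO, and Ifit3 236, 253 and 376 in WT and 83.7, 70.3 and 42.8 in KO.

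Antigen presentation genes were read next, beside 19.9% called over all tested genes. Of 22 tested class II genes 1 was lower and 4 higher. H2-Aa, a class II chain, read 10505, 10245 and 10684 in WT and 10407, 10885 and 10968 in KO, and its partner H2-Ab1 differed by 0.04 ± 0.08. The proteases divided, with cathepsin H (Ctsh) higher (2437, 2475 and 2646 in WT, 3660.4, 3847 and 3835 in KO) and cathepsin D (Ctsd) lower (925, 745 and 862 in WT and 532, 483 and 529.5 in KO). Among 25 class I genes 3 were lower and 0 higher, with the immunoproteasome subunit Psmb8 at -0.52 ± 0.13. Costimulatory and coinhibitory genes had 1 of 23 lower and 3 higher; Cd80, a costimulatory ligand, read 3820.3, 3682 and 3357 in WT and 3719, 3714 and 3915 in KO, and Icosl 7813, 8651 and 10058 in WT and 9451, 9903 and 9827 in KO. Of 29 proteins reported to assist Aire 0 were lower and 2 higher, Sub1 (0.51 ± 0.13, not called without KO array 2; adjusted p from 0.00109 to 0.0573 over the alternatives) and the acetyltransferase Crebbp (0.46 ± 0.11). Of 30 regulators and NF-kB genes 0 were lower and 3 higher, led by the deubiquitinase Cyld (706, 670.4 and 628 in WT, 981, 1262 and 1057 in KO). These small counts moved with scale and single arrays. The Aire list had 1 higher without KO array 2, 4 without KO array 1 and 6 on centred arrays, and the NF-kB list 1 higher without WT array 7, WT array 8, KO array 1 or KO array 2 and 5 on centred arrays. The class II count was 2 higher without WT array 6, WT array 8 or KO array 2. Fezf2, a transcription factor that controls other ectopic transcripts, read 3632, 4269 and 4312 in WT and 4034, 3594 and 3371 in KO. Cell cycle genes had 0 of 46 lower and 1 higher, and of 34 ribosomal protein genes limma called 0 in either direction (3 at an unadjusted p under 0.05).

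Transcripts of the cell types that medullary cells can come to resemble after Aire expression were measured in the same arrays. Of 27 tested tuft cell genes 2 were lower and 0 higher. Of 11 tested taste receptor and taste signalling genes 0 were lower and 1 higher. Their median level was dim, at 51.8 in WT and 74.7 in KO cells, so a fall could hardly be seen. The higher gene, Tas2r118, was dim on all arrays of both genotypes (37.1, 35.5 and 44.4 in WT, 71.2, 63.0 and 47.2 in KO). It read 184, 362 and 218 in GFP- cells, and its call was lost under 7 of 14 alternatives. Microfold cell genes had 5 of 16 lower and 2 higher. Gp2, their bacterial receptor, read 654, 568 and 934 in WT, 369.9, 314 and 92.8 in KO and 2351, 2536 and 2037 in GFP- cells (-1.67 ± 0.50, adjusted p = 0.0254). KO array 3 set much of that difference, which was -1.04 without it, and the call was lost under 3 of 15 alternatives (adjusted p from 0.00689 to 0.128). The factor Spib was not called (2459.9, 2832 and 2636 in WT and 2623, 2302 and 2667 in KO). Of 24 tested ciliated cell genes 9 were lower and 1 higher. Gmnc, which starts the multiciliated programme, fell from 332, 381 and 398 to 39.4, 39.9 and 47.2 (-3.13 ± 0.22), and Mcidas, which acts after it, from 246, 292 and 259.8 to 148, 164 and 170.1, while Rfx2 and Rfx3 differed by -0.0091 ± 0.15 and 0.04 ± 0.13. Among 13 neuroendocrine genes 1 was lower, chromogranin A (Chga), from 910.3, 785 and 1024 to 436, 415 and 385, and the factor Insm1 read 759, 949 and 963 in WT and 1079, 991 and 1329 in KO. Of 11 tested regulators of gut and liver identity 5 were lower, none by 2-fold, Gata4 by the most (197, 343 and 259 in WT, 133, 129 and 137 in KO). That count was 1 without WT array 8, 2 without KO array 2 and 3 without WT array 6, WT array 7 or KO array 1. Elf5 (-1.30 ± 0.12) and the ionocyte factor Foxi1 (-0.93 ± 0.13) led the 4 of 23 lower among skin, gland and ionocyte regulators. Of the 20 tested markers of mature medullary cells 5 were lower and 1 higher. Among the lower were Ly6d (963, 829 and 904 in WT, 356, 328 and 297 in KO, 3099.7, 2404 and 2539 in GFP-) and Krt10 (379, 341 and 498 in WT and 242, 242 and 137 in KO).

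The rises were fewer and smaller. The median intensity of the 76 genes at least 2-fold higher was 217.6 in WT GFP+, 549.9 in KO GFP+ and 132.3 in WT GFP- cells. On all 3 WT arrays 21 of them (27.6%) were dim, against 9.05% of all tested genes. In each of the 76 all KO arrays lay above all WT arrays, against 23.4% of all tested genes (3240), but the 76 were chosen by these same values. Ctla4, a receptor that restrains T cells, read 153, 171 and 156 in WT, 1147, 1246 and 997 in KO and 178, 212 and 90.8 in GFP- cells (2.82 ± 0.23, adjusted p = 8.96e-08). Of the T cell markers 0 of 8 tested were called by limma (1 at an unadjusted p under 0.05), their summed intensity was 1337 to 2546 in WT and 1304 to 2349 in KO cells, and Cd3e, a chain of the T cell receptor complex, read 334, 169 and 208 in WT and 199, 153 and 349 in KO.

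Further genes rose by 2-fold or more. Maoa, which degrades monoamines, read 204, 178 and 202 in WT and 604, 913 and 783 in KO cells. Tafa1, a secreted neural protein, read 225, 301 and 248 in WT and 1176, 1155 and 1027 in KO, and the olfactory receptor Olfr1136 319.5, 382 and 376 in WT and 1150.3, 1675 and 1148 in KO. For Olfr1136 the GFP- arrays lay near the floor, at 31.6, 32.9 and 25.6. Acot12, a thioesterase of acetyl-CoA, rose from 126, 149 and 170.4 to 591, 511 and 447, Ptchd4, a relative of the Patched receptors, from 199.7, 258 and 254 to 889.6, 781 and 742, and the scavenger collectin Colec12 from 165, 152 and 177 to 429.5, 563 and 502. Cnr2, the cannabinoid receptor of immune cells, went from 77.4, 76.2 and 63.2 to 275, 153 and 165, with KO array 1 the highest. Among genes above 500 in both genotypes Ly9, a SLAM family receptor, rose from 489.6, 518 and 502 to 1489, 1415 and 1353, and Syn2, a synapsin of synaptic vesicles, from 561, 607 and 707 to 1702, 1721 and 1705. Jph1, a junctophilin of muscle, went from 1193, 1344 and 1449 to 2717, 3578 and 3091, Spock3, a proteoglycan of the brain, from 1126, 1275 and 1427 to 2620.4, 3564 and 2895, Adam19, a membrane metalloprotease, from 665, 699 and 674 to 1683, 1444 and 1589.9 and Hdac9, a histone deacetylase, from 573, 681 and 502 to 1337, 1281 and 1289. Groups did not overlap in any of these, and GFP- cells lay below WT GFP+ cells in all of them but Tafa1, Acot12, Cnr2 and Hdac9, where the ranges overlapped. The KO against WT and the GFP+ against GFP- values share the WT GFP+ arrays and are not independent.

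Matrix genes moved in both directions. Of 34 tested 8 were lower and 6 higher. Dcn, the proteoglycan decorin, rose from 1469, 1755 and 1512 to 3238, 3363 and 3579 (1.11 ± 0.11, adjusted p = 8.63e-07), Epyc from 224, 365 and 276 to 727, 884 and 774 and Postn (periostin) from 146, 235 and 154 to 462, 489 and 568. Lum, lumican, was called higher but dim on all 6 arrays (34.3, 27.2 and 31.7 in WT, 78.1, 70.04 and 73.7 in KO). Biglycan (Bgn), in turn, fell from 750.3, 1014 and 824 to 518, 244 and 536, and fibronectin fell as given above. The fibroblast list summed to 3422 to 3820 in WT and 5235 to 5810 in KO cells. Most of that rise was Dcn alone, with a mean of 1579 in WT and 3394 in KO. Of the 9 tested members Dcn, Lum and Postn were higher, 4 were not called and 2 were lower. Among the lower was the collagen Col1a1 (295, 279.8 and 281 in WT and 225, 194 and 227 in KO). The fibroblast receptor Pdgfra was near background (59.4, 80.2 and 72.5 in WT and 89.3, 76.5 and 111 in KO). Their part in these changes was not tested.

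Markers of other cells that the gate should remove were also read. Of 12 tested dendritic cell and macrophage genes 6 were lower and 2 higher, with sums of 14800 to 15500 in WT and 14460 to 15170 in KO cells. The macrophage receptor Adgre1 fell from 178, 226 and 198 to 48.9, 44.2 and 64.5, while Fcer1g, an Fc receptor chain, rose from 689, 673 and 785 to 1145, 993 and 1222. Ptprc, which encodes the CD45 used for exclusion, read 204, 120.1 and 129 in WT and 139, 134 and 301 in KO (adjusted p = 0.532), highest on KO array 3. Of the B cell markers 0 of 4 tested were called by limma (1 at an unadjusted p under 0.05).

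KO array 3 stood apart from the other KO arrays for some transcripts. It was the lowest KO array for Scgb1a1, Krt10, Gp2 and Cyp2g1 (928, 800.2 and 347 in KO, 1055, 1092 and 1222 in WT, 6324, 6305 and 6481 in GFP- cells), and the highest for the heat shock genes Hspb1 and Hspa1a (3968, 3256 and 8546 in KO, 8225, 6357 and 7007 in WT). Leaving it out gave 602 genes at least 2-fold lower and 100 at least 2-fold higher, and 597 of the 606 and all 76 stayed called in their direction.

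In perinatal GFP+ cells the same contrast called 593 genes at least 2-fold lower (4.28% of those tested) and 62 higher (0.448%). Of the lower genes 457 were among the 606 of adults, and of the higher genes 18 were among the 76. The KO effect differed between the ages, by the interaction contrast of the same limma fit, for 52 of the 606 and 17 of the 76, against 1.21% of all tested genes (167). The 606 and the 76 were chosen for a large adult effect, which favours a larger effect in adults than in perinates.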

How the data were processed

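The deposited table held linear intensities per probe set, for which the submitters' processing notes name RMA and Affymetrix Power Tools, without versions. As usually run, RMA gives the arrays a like distribution, so overall shifts in RNA are lost. Intensities were taken as log2 without a pseudocount. Probe sets with 1 symbol were kept (21425 of 24922), the one with the highest mean for 921 genes with several, if above the array's 40th percentile on at least 2 of 17 arrays. limma 3.58.1 in R 4.3.3 fitted the 6 group means over all 17 arrays, and the two-sided moderated test was adjusted by Benjamini-Hochberg over 13842 genes (called: adjusted p under 0.05). The script was checked on simulated data.

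The compared groups have 3 arrays each, which limits the precision (median SE 0.13 on the log2 scale). Named genes were the 20 largest called falls and rises, the 10 largest above 500 in both genotypes, up to 6 called and 3 bright uncalled members of each list, and markers; a few neighbours and list members were named besides. Genes and lists were chosen with earlier results of these data known. Alternatives changed scaling, filter, arrays, weights, spread, probe sets, pseudocount and single arrays. Promoters and gene order came from RefSeq.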

Additional observations from a re-analysis of the deposited data

Results flagged for a closer look

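The same KO against WT contrast was made on cells of perinates labelled as 3 days old, and 17 of the named genes had an effect that differed between the ages by the interaction contrast of the limma fit. Each value is the perinatal minus the adult log2 effect with its SE. The genes were chosen for a large adult effect, and the adult arrays enter both the choice and the contrast, so a larger effect in adults than in perinates is favoured by the choice and is given as a description.

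Of the falls, Akr1c18 differed by 1.62 ± 0.31 (adjusted p = 0.022), from effects of -4.90 in adults and -3.27 in perinates. The difference was 1.12 ± 0.19 (adjusted p = 0.00747) for Mcpt2, 1.41 ± 0.23 (adjusted p = 0.00701) for Calb2 and 1.10 ± 0.16 (adjusted p = 0.00509) for 1810065E05Rik. For Pgc it was 0.91 ± 0.19 (adjusted p = 0.0313), and for Fn1 0.84 ± 0.19 (adjusted p = 0.0413), whose effects were -1.28 in adults and -0.44 in perinates.

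Of the rises, Ctla4 differed by -1.71 ± 0.33 (adjusted p = 0.022), from 2.82 in adults and 1.11 in perinates. Rgr differed by -1.76 ± 0.29 (adjusted p = 0.00723), from 1.88 in adults and 0.12 in perinates, and Acot12 by -1.53 ± 0.19 (adjusted p = 0.00231), from 1.80 in adults and 0.27 in perinates. The difference was -1.47 ± 0.33 (adjusted p = 0.0416) for I830077J02Rik, -1.22 ± 0.26 (adjusted p = 0.0361) for Tafa1, -1.13 ± 0.17 (adjusted p = 0.0053) for Ptchd4 and -1.19 ± 0.25 (adjusted p = 0.0292) for Postn. It was -0.92 ± 0.20 (adjusted p = 0.0413) for Ly9, -1.23 ± 0.25 (adjusted p = 0.0286) for Ccdc38, a coiled-coil protein, -1.42 ± 0.25 (adjusted p = 0.0113) for Cnr2 and -0.70 ± 0.16 (adjusted p = 0.0412) for Dcn. The perinatal effect of Cnr2 was -0.011. Age and any difference in how the samples were prepared cannot be told apart.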

How the results depend on the processing

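At 2-fold or more, lower genes outnumbered higher ones under all 15 alternatives, of which 6 left out 1 array. Over all calls the main fit had 1254 higher and 1496 lower genes, and that order turned around under 3 alternatives. Centring the arrays gave 2127 higher and 1349 lower, array weights 2042 and 1825, and the filter at the 60th percentile, which tested 9965 genes, 969 and 905. Quantile normalization gave 1461 and 1462. With log2(value + 50), which shrinks differences of dim genes by construction, 40 genes were at least 2-fold higher against 76, and 413 lower against 606. Leaving out 1 array gave 631 to 1130 higher and 1208 to 1472 lower genes, and 72 to 100 higher and 583 to 629 lower at 2-fold. At least 593 of the 606 and 74 of the 76 kept their call under each alternative that tested them all. The filter at the 60th percentile tested 414 of the 606 and 57 of the 76, and averaged probe sets 603 of the 606. All of those tested kept their call there. The median difference of all tested genes was 0.12 after centring. Of 244 named called genes 31 lost the call under at least 1 alternative and 0 reversed. They included Hnf4a and Tigit (7 of 14 each), Foxa1 (4 of 15) and Traf6 (6 of 15). Named genes without a call gained one too, 18 with array weights and 18 with only the 6 compared arrays in the fit. On those 6 arrays limma called Serpinc1 (adjusted p = 0.0428) and Lpo (adjusted p = 0.0248) lower, for example. With quantile normalization it called Gsta4 lower (adjusted p = 0.0303). Counts of gene lists moved by over 1.5 times in 0 cases with probe sets averaged and in 28 with the stricter filter. Other causes were not tested. Signal over background limits the folds of genes dim in 1 genotype, and paralogs can share probe signal. No paired analysis was possible because the KO arrays are numbered 1 to 3 and the WT arrays 6 to 8.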

Other observations

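Around Aire itself, of 10 tested genes on each side along chromosome 10, 1 was called, against 19.9% of all tested genes. Dnmt3l, a cofactor of the DNA methyltransferases that lies next to Aire, read 814, 888 and 951 on the 3 WT arrays, 1558, 1318 and 1572 on the 3 KO arrays and 103, 90.6 and 75.9 on the GFP- arrays. All 3 KO arrays were above all WT arrays, a log2 difference of 0.74 ± 0.12 with an adjusted p of 0.000171 in limma. Whether this gene's rise belongs to the deleted allele or to the lost protein was not tested.

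The 2-fold lower genes were spread over the chromosomes. Their share of placed tested genes was highest on chromosome 3 at 7.37% (50 of 678), where the runs of skin proteins and glutathione transferases lie, and lowest on chromosome 12 at 1.94% (9 of 463). The 2-fold higher genes had their highest share on chromosome 1 at 1.75% (14 of 801), and chromosome 15, with 564 placed tested genes, held 0.

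Probe sets left out because they name several genes or none showed the same imbalance of direction. Of 875 tested probe sets with several symbols 54 were called at least 2-fold lower and 2 higher, and of 1229 with no symbol 53 were lower and 3 higher.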
